A study of Mus musculus with 16 samples.

Results

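The genes described here are the interleukins and interleukin receptors, the secreted messengers with which leukocytes, epithelium and stroma signal to each other and the chains that receive them. They were chosen by name alone, as the genes of the deposited table whose symbol begins with IL and a digit, apart from Il33, Il1rl1 and Il1rap, which make up the IL-33 pathway itself. Of 18132 genes, 80 carried such a symbol and 77 remained, among them 32 ligands, 38 genes named as receptors and 3 soluble antagonists. The 38 include decoy receptors and the gene of a soluble binding protein for IL-22. They were sorted into a type 2 family of 11 genes, an IL-1 family of 15, an IL-6 family of 8 and 5 other groups. A few symbols are older names that stand for something else. Il8rb is the chemokine receptor Cxcr2, Il1rl1l is the trafficking protein Tmed1, and Il4i1 is an amino acid oxidase. Genes with no row in the table, such as Il2, Il31 and Il34, were not analysed here.

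RNA of whole kidney homogenate was measured on Illumina MouseRef-8 arrays, 1 kidney per array, in 4 groups. Mice were wildtype (WT) or IL-33-deficient, labelled IL-33 KO, mice without Il33 backcrossed to C57BL/6J BomTac, and 8 weeks old where the methods do not state otherwise. In the groups labelled UUO, a metal clip closed the left ureter (unilateral ureteral obstruction) and the kidney was taken 24 h later, from 7 WT and 5 IL-33-deficient mice. The groups labelled control held 2 WT and 2 IL-33-deficient kidneys, and no sham operation is stated for them. The UUO kidneys belonged to 2 sets, set 1 with 3 WT kidneys and 2 that lacked IL-33, set 2 with 4 and 3, while the set of the control kidneys is not given, so that treatment and set cannot be fully told apart. Kidneys are named by the number in their label.

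Interleukins are commonly grouped by the receptor chains they share, whereas the type 2 family used here is grouped by function. Most cytokines of the IL-6 family signal through gp130, the product of Il6st, which pairs with other receptor chains and activates JAK kinases and STAT3. IL-1 family ligands act through receptors that recruit MyD88 and activate NF-kB, and are held back by receptor antagonists, decoy receptors and binding proteins. The type 2 cytokines IL-4, IL-5, IL-9 and IL-13 drive eosinophil and allergic responses, and IL-25, which acts through Il17rb, induces them. IL-33 belongs to the IL-1 family and is a known inducer of type 2 cytokines.

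Il33 served as the check of the labels. In control WT kidneys its log2 intensity was 7.62 and 8.02, and after UUO it ran from 8.39 to 9.57 with a median of 9.44. All 7 IL-33-deficient kidneys lay between 6.80 and 7.02. The labelled genotypes were thus kept apart without overlap, and the level that remained in the absence of the gene gave a rough measure of the brightness of a probe without its transcript, with the reservation that background differs between probes. Deposited intensities had array medians of 132 to 133 and were already scaled alike. Kidney markers were bright in every array (8 of 8 in the table above that level), whereas the leukocyte marker Ptprc lay between 6.76 and 6.92 throughout. Among WT UUO kidneys, 3818 and 3820 showed the weakest injury response, the tubular injury gene Havcr1 reaching 12.84 and 10.42 there against 13.12 to 13.95 in the other WT UUO kidneys and 7.07 to 7.37 in controls. For several genes the value without these kidneys is given as well. They were picked for a weak response after the data were seen, and no IL-33-deficient kidney was left out to match. Leaving them out can therefore enlarge WT changes by itself, and such values are a description only.

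Most interleukin genes were close to background in these kidneys. In 42 of the 77 genes (54.5%), the means of all 4 groups were at or below 7.02, the highest value of Il33 in IL-33-deficient kidneys, compared with 42.8% of all genes. These included all 6 genes of the IL-12 family, 8 of 11 type 2 genes, 7 of 15 IL-1 family genes and 2 of 8 IL-6 family genes. Ligands were dim more often than receptors, 21 of 32 against 18 of 38, a difference that was not tested. In 64 genes the highest and lowest of the 16 arrays differed by less than 0.5 on the log2 scale. Where background brightness remains in an intensity, the fold change of a dim gene can understate the change of its transcript. For genes at background, the values do not show whether a transcript was present.

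**Figure D1:**
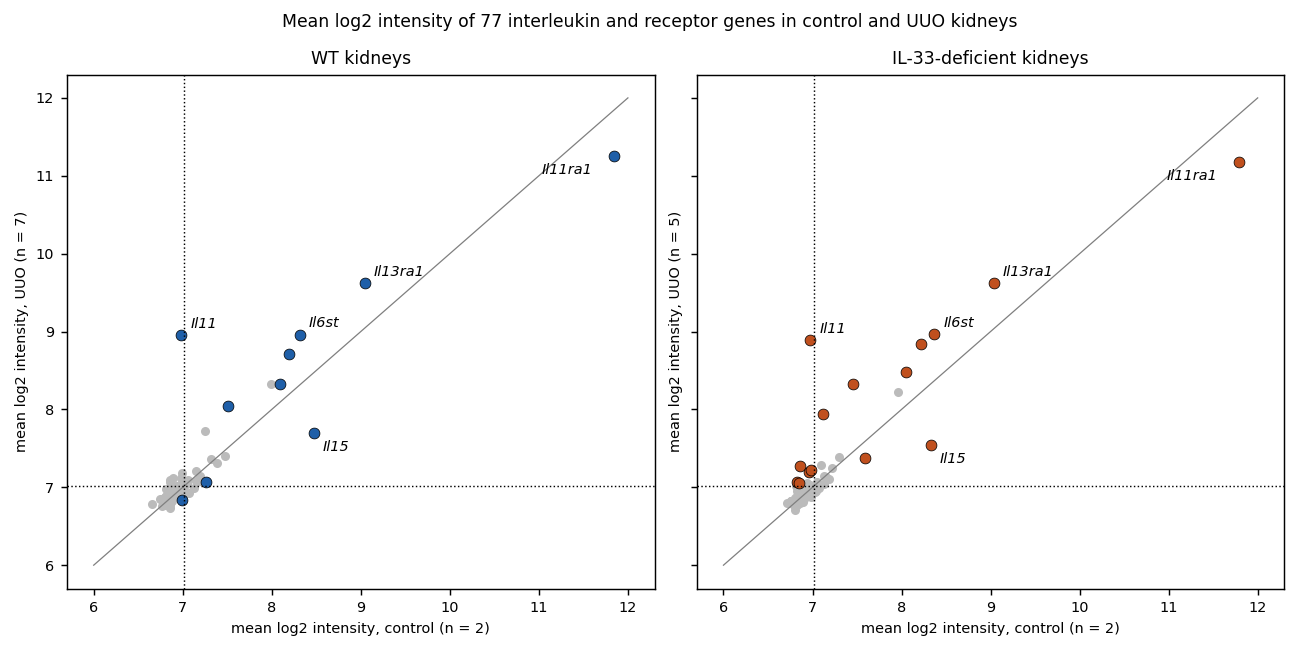
Mean log2 intensity of each of the 77 genes in control kidneys (x axis) and UUO kidneys (y axis), for WT (left) and IL-33-deficient mice (right). Coloured points passed an adjusted p of 0.05, grey points did not, the diagonal marks equal levels and dotted lines mark 7.02, the highest Il33 value without the gene. Most genes crowd near the dotted lines, while Il11 leaves them after UUO in both genotypes and Il11ra1 and Il15 lie below the diagonal.

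What UUO changed in the kidney was asked first, in each genotype against its own controls. In WT kidneys, 10 of the 77 genes passed an adjusted p of 0.05 (13.0%), 6 higher and 4 lower, where 15.2% of all 18132 genes were called, 6.97% higher and 8.22% lower. In IL-33-deficient kidneys 15 passed (19.5%), 12 higher and 3 lower, against 21.8% of all genes, 10.6% higher and 11.2% lower. The share of interleukin genes was therefore near that of all genes. Without adjustment 20 were under 0.05 in WT and 19 in IL-33-deficient kidneys (26% and 24.7%), where 26% and 30.7% of all genes were. Median fold changes over the 77 genes were 0.01 on the log2 scale in both genotypes, and over all genes -0.00076 and -0.00057. Nearly all calls fell on the brighter genes. Of the 23 interleukin genes above the median brightness of the table, 9 were called in WT and 13 in IL-33-deficient kidneys (39.1% and 56.5%), where 29% and 41.2% of all genes above it were. Of the 54 dimmer ones, 1 and 2 were called (1.85% and 3.7%), where 1.42% and 2.39% of all dimmer genes were. In total, 17 genes were called in at least 1 genotype and 8 in both, 80% of the WT list and 53.3% of the IL-33-deficient list.

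The IL-6 family held the largest rise. Il11, a gp130 cytokine known for its profibrotic action on stromal cells, was at background in all 4 control kidneys, at 6.96 and 7.0 for WT mice and 7.0 and 6.95 for IL-33-deficient mice. After UUO it ran from 7.41 (kidney 3818) to 9.76 in WT, with a median of 9.03, and was 8.93, 8.96, 9.04, 8.94 and 8.57 in IL-33-deficient kidneys. Every UUO kidney lay above every control. Mean intensity was 3.92-fold higher in WT (log2 fold change 1.97, SE 0.43, adjusted p = 0.00681) and 3.77-fold higher in IL-33-deficient kidneys (1.92, SE 0.45, adjusted p = 0.00621). Without kidneys 3818 and 3820 the WT change was 2.32. The call of Il11 was lost in WT without control 3811 (adjusted p = 0.0749) or 3812 (0.0781) and with set 1 alone (0.197), and in IL-33-deficient kidneys without control 3813 (0.0552) or 3814 (0.0571) and with set 1 alone (0.0828), while the change stayed at 1.65 or more.

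The receptor for IL-11 moved the other way. Il11ra1, the chain that binds IL-11 and hands it to gp130, was 11.90 and 11.78 in WT controls and 11.83 and 11.75 in IL-33-deficient controls. UUO lowered it to between 11.09 and 11.41 in WT (median 11.31) and to 11.12, 11.10, 11.15, 11.28 and 11.25 in IL-33-deficient kidneys, again without overlap. The fall was 1.50-fold in WT (log2 fold change -0.58, SE 0.08, adjusted p = 0.000508) and 1.53-fold in IL-33-deficient kidneys (-0.61, SE 0.09, adjusted p = 0.000173). Mice carry a near copy of this gene, Il11ra2, and whether its transcript also binds the probe cannot be read from the table.

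Il6st, the shared signal-transducing chain gp130, rose. Controls lay at 8.21 and 8.42 for WT mice and 8.44 and 8.29 for IL-33-deficient mice, and UUO kidneys at 8.76 to 9.27 in WT (median 8.91) and at 8.91, 9.01, 8.94, 9.04 and 8.92 in IL-33-deficient mice. Groups did not overlap in either genotype. The increase was 1.57-fold in WT (log2 fold change 0.65, SE 0.10, adjusted p = 0.000791) and 1.51-fold in IL-33-deficient kidneys (0.60, SE 0.10, adjusted p = 0.000735).

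Il6 itself, the acute-phase cytokine, stayed close to background. Both WT controls read 6.89, and the IL-33-deficient ones 6.83 and 6.81. WT UUO kidneys ran from 6.88 to 7.60 with a median of 7.09, kidney 3820 holding the highest value, and the IL-33-deficient ones were 6.89, 7.04, 7.03, 7.15 and 6.98. The changes of 0.23 (SE 0.13, adjusted p = 0.269) and 0.20 (SE 0.13, adjusted p = 0.361) did not pass the test. With the UUO kidneys of set 2 alone, both did, at 0.17 (adjusted p = 0.0378) and 0.23 (adjusted p = 0.00846), and in WT so did the comparison without kidneys 3818 and 3820 (0.19, adjusted p = 0.0329).

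Among the other receptor chains of the family, Il27ra, which pairs with gp130 to bind IL-27, was 7.03 and 6.90 in IL-33-deficient controls and 7.25, 7.06, 7.22, 7.29 and 7.19 after UUO, a change of 0.24 (SE 0.07, adjusted p = 0.027). In WT kidneys it ran from 6.95 to 7.19 after UUO against 7.09 and 6.90, a change of 0.11 with an adjusted p of 0.353. Il6ra, the IL-6 binding chain, was 7.08 and 7.17 in WT controls and 6.85 to 7.15 after UUO, and its changes of -0.13 and -0.07 did not pass. Il27 and Il31ra changed by 0.08 and 0.07 in WT and by 0.07 and -0.01 in IL-33-deficient kidneys, none of them called. The family thus gave 2 genes higher and 1 lower of 8 in WT, and 3 higher and 1 lower in IL-33-deficient kidneys. Of all genes, 15.2% and 21.8% were called, and 29% and 41.2% of those above the median brightness. The counts of this small family were not tested against these shares.

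Other genes of gp130 signalling were taken from a list of 14, of which 13 were in the table. They gave 3 genes higher in WT and 4 in IL-33-deficient kidneys, with none lower. Of all genes, 6.97% were called higher in WT and 10.6% in IL-33-deficient kidneys, a difference from the list that was not tested. Socs3, the feedback inhibitor that STAT3 induces, rose by 2.54 (SE 0.44, adjusted p = 0.00152) in WT and by 3.18 (SE 0.46, adjusted p = 0.000177) in IL-33-deficient kidneys, Stat3 by 1.09 and 1.34, and the oncostatin M receptor Osmr by 1.06 and 1.61. The kinase gene Jak1 rose in IL-33-deficient kidneys by 0.78 and had a change of 0.33 in WT (adjusted p = 0.255). Lif and Osm, gp130 ligands outside the interleukin names, were not called in either genotype. The median change over the 13 genes was 0.06 in WT and 0.11 in IL-33-deficient kidneys.

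**Figure D2:**
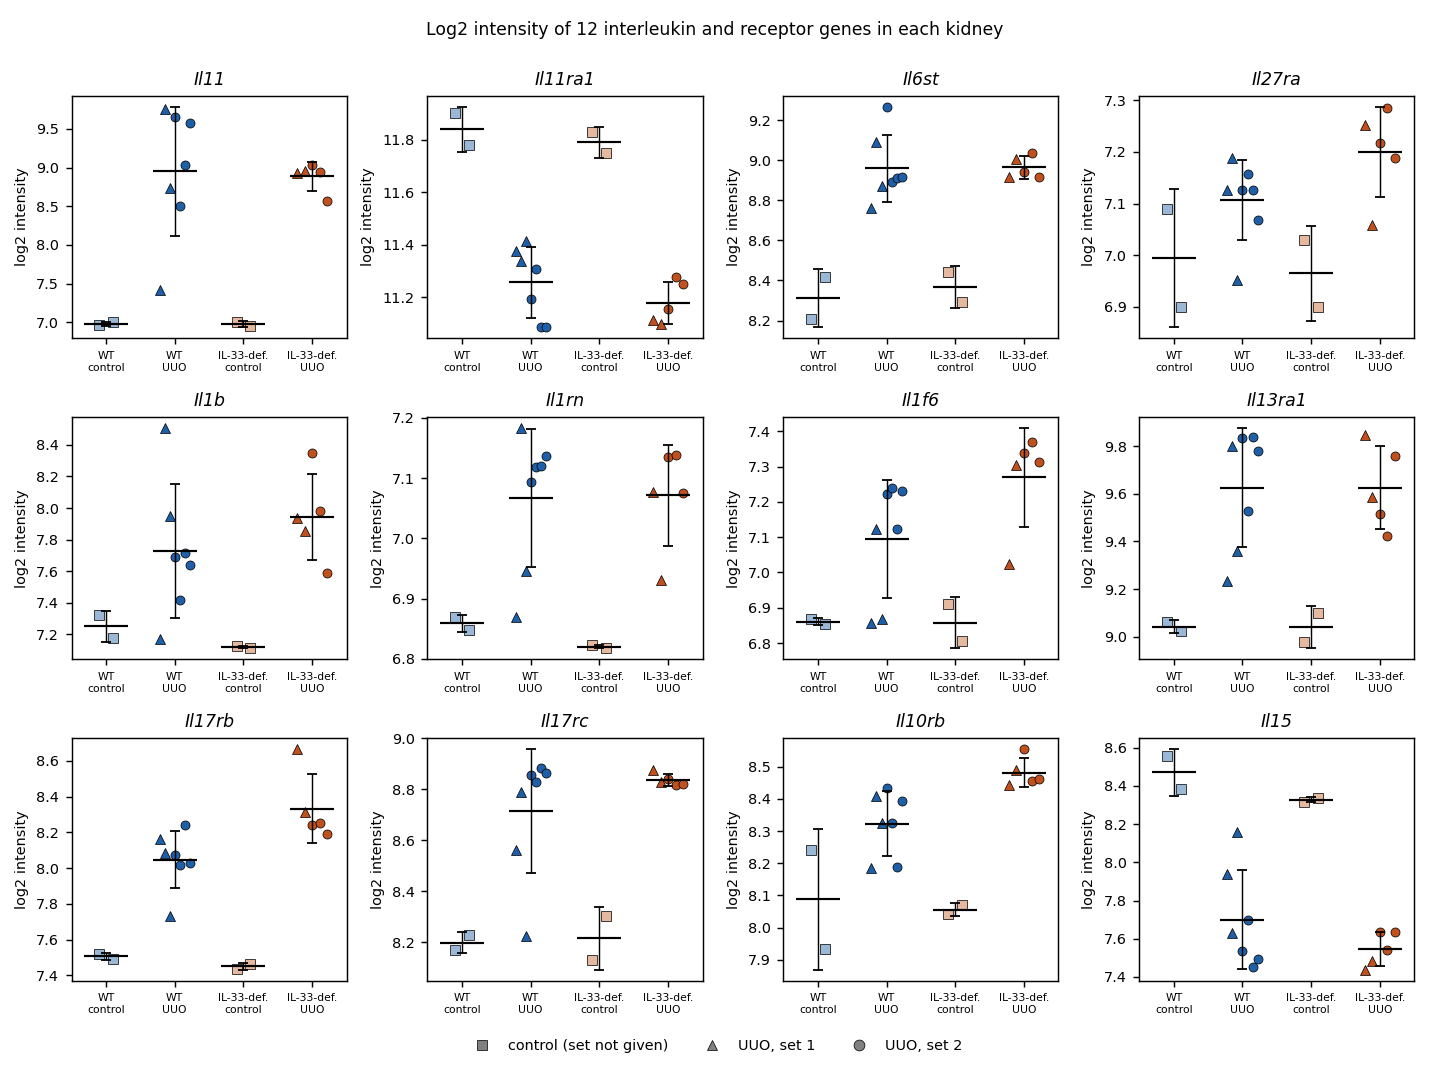
Log2 intensity of 12 genes in each kidney, by group (x axis), with the group mean as a line and 1 SD as a bar, each panel on its own y axis. Squares are controls, triangles UUO kidneys of set 1 and circles those of set 2. Il11 reaches 8.50 or more in all WT UUO kidneys but 3818, at 7.41, and 8.57 to 9.04 in IL-33-deficient UUO kidneys.

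In the IL-1 family no gene of 15 passed in WT kidneys and 3 passed in IL-33-deficient kidneys, all higher. Of all genes, 15.2% passed in WT and 21.8% in IL-33-deficient kidneys. The leading ligand was Il1b, an inflammasome-processed cytokine of myeloid cells. It was 7.13 and 7.11 in IL-33-deficient controls and 7.94, 7.85, 8.35, 7.98 and 7.59 after UUO, without overlap, a 1.77-fold increase (log2 fold change 0.82, SE 0.26, adjusted p = 0.0322). In WT controls it was 7.32 and 7.18, and after UUO it ran from 7.17 (kidney 3818) to 8.51 with a median of 7.69. These WT values overlapped through kidney 3818, and the change of 0.48 (SE 0.25) had an adjusted p of 0.251. Apart from kidney 3818 the lowest WT UUO value was 7.42. The difference between the responses was 0.35 (SE 0.36, adjusted p = 0.978), so the call in 1 genotype alone was no evidence of a different response.

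Il1rn, the antagonist that blocks the IL-1 receptor, was 6.82 and 6.82 in IL-33-deficient controls and 7.08, 6.93, 7.14, 7.14 and 7.08 after UUO (change 0.25, SE 0.08, adjusted p = 0.0268). In WT it moved from 6.87 and 6.85 to between 6.87 and 7.18, median 7.12 (change 0.21, SE 0.07, adjusted p = 0.0701). Il1f6, now named Il36a, an epithelial ligand of the IL-36 receptor, was 6.91 and 6.81 in IL-33-deficient controls and 7.02, 7.30, 7.34, 7.37 and 7.31 after UUO (0.41, SE 0.11, adjusted p = 0.0147). In WT it moved from 6.87 and 6.85 to between 6.86 and 7.24, median 7.12 (0.23, SE 0.11, adjusted p = 0.182). The lowest WT UUO values of both genes belonged to kidneys 3818 and 3820. Without these 2 kidneys, both genes passed in WT, at 0.27 for Il1rn and 0.33 for Il1f6. Leaving out the lowest values raises the WT change by itself, so this is no separate support for a WT response.

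The remaining 12 genes of the IL-1 family were not called in either genotype. Il1r2, a decoy receptor for IL-1, was 6.79 and 6.84 in WT controls and 6.87 to 7.09 after UUO, without overlap, with a change of 0.16 and an adjusted p of 0.0581 that fell under the threshold without kidneys 3818 and 3820 (0.17). Il18, a ligand that tubular epithelium makes, had changes of 0.05 in WT and 0.19 in IL-33-deficient kidneys, and its binding protein Il18bp of -0.08 and 0.04. Il1a, Il1r1, Il1rl2 (the IL-36 receptor), Il1f5, Il1f9, Il1f10, Il18r1, Il18rap and Il1rapl2 changed by about 0.10 or less in each genotype.

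Of 13 genes of IL-1 signalling outside the interleukin names, 2 were higher and 1 lower in WT and 3 higher and 1 lower in IL-33-deficient kidneys. Among all genes, 15.2% were called in WT and 21.8% in IL-33-deficient kidneys. The adaptor Myd88 rose by 0.88 in WT and 1.02 in IL-33-deficient kidneys and the NF-kB cofactor Nfkbiz by 1.50 and 1.80, while the ligase Traf6 fell by 0.22 and 0.24, WT named first. Nfkbia, the inhibitor of NF-kB, rose by 0.58 in IL-33-deficient kidneys, its change in WT being 0.26 (adjusted p = 0.272). The median change over the 13 genes was 0.09 in WT and 0.11 in IL-33-deficient kidneys.

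Markers of myeloid cells, which make IL-1b, changed in part. Among all genes, 6.97% in WT and 10.6% in IL-33-deficient kidneys were called higher, and 8.22% and 11.2% lower. Of 4 neutrophil markers in the table, 2 at background, 1 rose in WT and 2 in IL-33-deficient kidneys, S100a8 by 1.54 and 2.58 and S100a9 in IL-33-deficient kidneys by 1.91. The summed neutrophil intensity was 728 to 855 in WT controls, 809 to 2210 in WT UUO kidneys, 488 to 668 in IL-33-deficient controls and 1308 to 2717 after UUO. Of 8 macrophage and monocyte markers, Ccr2 and Itgam at background, 1 rose and 1 fell in WT and 3 rose and 1 fell in IL-33-deficient kidneys, with sums of 3090 to 3343, 3243 to 4437, 2663 to 2858 and 3507 to 4639 in the same order. The part of these cells in the change of Il1b was not tested, and in homogenates more cells of a type and more transcript per cell cannot be told apart.

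In the type 2 family no ligand was called, whereas the receptors Il13ra1 and Il17rb rose in both genotypes. Il4, Il5, Il9 and Il25 changed by less than 0.10 in either genotype, at group means that stayed at the level of Il33 in kidneys without the gene. Il13 was 6.90 and 7.09 in WT controls and 7.08 to 7.33 after UUO, median 7.17 (change 0.19, SE 0.07, adjusted p = 0.0686), and 7.16 and 7.16 against 7.20, 7.03, 7.23, 7.13 and 7.03 in IL-33-deficient kidneys (-0.03, adjusted p = 0.837). Neither change was called. The mast cell and eosinophil list, of which 6 markers were in the table and 5 were at background, had no marker called in any comparison.

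Il13ra1, the chain that joins IL-4 receptor alpha in the receptor for IL-13, was 9.06 and 9.02 in WT controls and 8.98 and 9.10 in IL-33-deficient controls. After UUO it ran from 9.24 to 9.84 in WT (median 9.78) and was 9.85, 9.59, 9.51, 9.42 and 9.76 in IL-33-deficient kidneys. No UUO kidney overlapped a control, and the rise was 1.50-fold in both (WT 0.58, SE 0.15, adjusted p = 0.0166; IL-33-deficient 0.59, SE 0.16, adjusted p = 0.0135).

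Il17rb, the receptor chain for IL-25, was 7.52 and 7.49 in WT controls and 7.44 and 7.46 in IL-33-deficient controls. It ran from 7.73 to 8.24 after UUO in WT (median 8.07) and was 8.67, 8.31, 8.24, 8.26 and 8.19 in IL-33-deficient kidneys. Every UUO kidney was above every control. The rise was 1.46-fold in WT (log2 fold change 0.54, SE 0.12, adjusted p = 0.00622) and 1.84-fold in IL-33-deficient kidneys (0.88, SE 0.12, adjusted p = 0.000147).

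Il4ra, the signalling chain for IL-4 and IL-13, was called only in WT, 6.97 and 7.02 in controls and 6.78 to 6.90 after UUO (median 6.84; change -0.15, SE 0.04, adjusted p = 0.0197). Its level was 6.79 and 6.84 in IL-33-deficient controls and 6.79 to 6.90 after UUO (0.02, adjusted p = 0.789). All these values lay at the level of Il33 in kidneys without that gene. The interaction between genotype and UUO was 0.18 with an adjusted p of 0.973. Il5ra, Il9r and Il13ra2, a decoy receptor for IL-13, were not called. In the wider type 2 list, 10 of 11 genes were in the table, and in each genotype 2 rose and 1 fell. Among all genes, 15.2% were called in WT and 21.8% in IL-33-deficient kidneys. The kinase gene Jak3 rose by 0.25 in WT and 0.33 in IL-33-deficient kidneys, Chi3l3, a chitinase-like product of alternatively activated macrophages, by 0.84 and 1.16, and the transcription factor gene Gata3, which kidney epithelium also expresses, fell by 0.47 and 0.31. The median change over the 10 genes was 0.11 in each genotype.

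**Figure D3:**
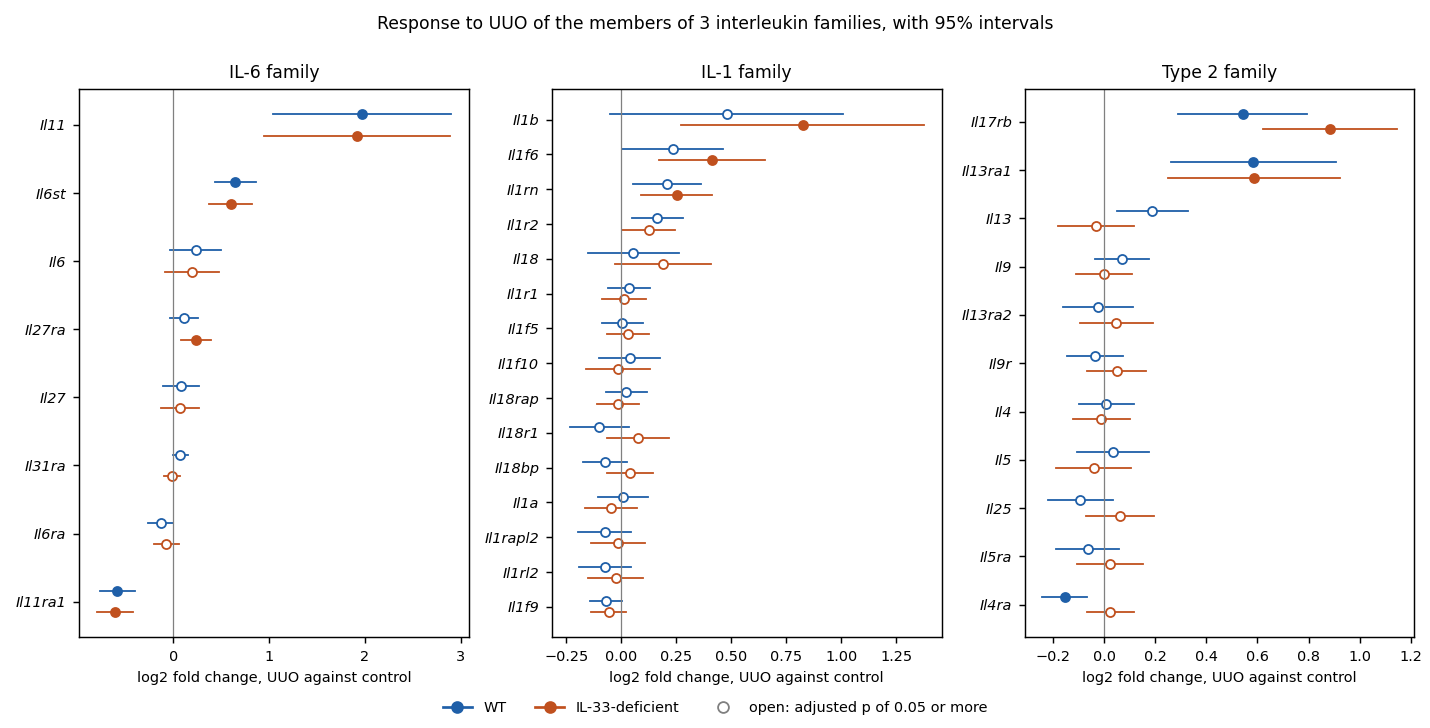
Log2 fold change of UUO against control (x axis) for every gene of the IL-6, IL-1 and type 2 families, WT in blue and IL-33-deficient in orange, with 95% intervals of the limma fit and open symbols where the adjusted p was 0.05 or more. Each panel has its own x axis. Il11 and Il6st lie to the right and Il11ra1 to the left of 0 in both genotypes, the IL-1 family is led by Il1b, and in the type 2 family the receptors Il17rb and Il13ra1 lie apart from the ligands.

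Outside these families, 7 further genes were called. Il15, a ligand of the common gamma chain family that sustains natural killer and memory T cells, was 8.56 and 8.39 in WT controls and 8.32 and 8.34 in IL-33-deficient controls. It fell to between 7.45 and 8.16 in WT (median 7.63) and to 7.44, 7.48, 7.64, 7.54 and 7.63 in IL-33-deficient kidneys, all below all controls. The fall was 1.71-fold in WT (log2 fold change -0.77, SE 0.14, adjusted p = 0.00223) and 1.72-fold in IL-33-deficient kidneys (-0.78, SE 0.15, adjusted p = 0.0014). Its receptor chain Il15ra changed by -0.11 and -0.08, not called. No marker of T and NK cells or B cells was called, but 2 of 8 and 2 of 3 of those in the table were at background. By contrast, 4 of 8 kidney markers fell in each genotype, where 8.22% and 11.2% of all genes were called lower. The sum of the 8 ran from 52817 to 57433 in controls, from 31868 to 54702 in WT UUO kidneys and from 29256 to 35776 in IL-33-deficient UUO kidneys. The part of this loss in the fall of Il15 was not tested.

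Il17rc, a chain of the receptor for IL-17A and IL-17F, was 8.17 and 8.23 in WT controls and 8.13 and 8.30 in IL-33-deficient controls. It ran from 8.22 (kidney 3820) to 8.88 in WT UUO kidneys (median 8.83), a value overlapping the controls, and was 8.87, 8.83, 8.84, 8.82 and 8.82 in IL-33-deficient kidneys. Its rise was 0.52 (SE 0.13, adjusted p = 0.0145) and 0.62 (SE 0.14, adjusted p = 0.00363). Without kidneys 3818 and 3820, which held its lowest WT UUO values, the WT rise was 0.64. Il10rb, the chain shared by the receptors for IL-10, IL-22 and the lambda interferons, moved from 8.24 and 7.93 to between 8.18 and 8.44 in WT, median 8.33, which overlapped (0.24, SE 0.08, adjusted p = 0.0498), and from 8.04 and 8.07 to 8.44, 8.49, 8.55, 8.46 and 8.46 in IL-33-deficient kidneys (0.43, SE 0.08, adjusted p = 0.00119). The WT call of Il10rb was at the edge of the threshold and was lost under 11 of 18 alternatives.

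Smaller changes were called in 1 genotype each. Il16, a T cell chemoattractant, fell by 0.19 in WT (adjusted p = 0.0414), from 7.30 and 7.23 to between 6.94 and 7.21, a call lost under 10 of 18 alternatives, among them the one without kidneys 3818 and 3820. In IL-33-deficient kidneys Il17re, the receptor chain for IL-17C, fell by 0.21 (adjusted p = 0.0418), Il3ra, the IL-3 binding chain, rose by 0.20 (adjusted p = 0.0232) and Il4i1 rose by 0.24 (adjusted p = 0.0392). The other genes of the common gamma, IL-10, IL-12 and IL-17 families, and the older-named Il8ra, Il8rb and Il1rl1l, were not called in either genotype.

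Calls depended on the control kidneys, of which there were 2 in each genotype. When 1 or the other WT control was left out, 3 genes were called in WT, Il11ra1 and Il6st in both cases, and Il11, Il13ra1, Il17rb, Il17rc, Il4ra and Il16 in neither. When 1 or the other IL-33-deficient control was left out, 6 were called there, Il11ra1, Il6st, Il15, Il17rb and Il10rb in both cases. Il11, Il13ra1, Il1b, Il1rn, Il1f6, Il3ra, Il4i1 and Il17re were called in neither case, Il27ra was lost without control 3814 and Il17rc without 3813. Without kidneys 3818 and 3820 the WT change was -0.91 for Il15, 0.72 for Il13ra1 and 0.70 for Il6st. The exact permutation test cannot go below p = 0.0278 for 2 against 7 kidneys or p = 0.0476 for 2 against 5. In 13 genes the WT groups did not overlap and in 23 the IL-33-deficient groups did not, shares of the list that stand beside 21.4% and 35% of all genes.

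Promoters of responding genes are shown for 4 members, chosen as the 3 called genes whose window matched the AP-1 motif and Il11, the gene with the largest rise. Sequences are the 250 bases before the annotated start, 5′ to 3′ on the strand of the gene, from RefSeq on GRCm38.p6, with AP-1 matches in capitals. They are Il17rb at chr14:30008897-30009146 on the minus strand, Il1rn at chr2:24336610-24336859 on the plus strand, Il16 at chr7:83735540-83735789 on the minus strand and Il11 at chr7:4782858-4783107 on the minus strand.
Il17rb: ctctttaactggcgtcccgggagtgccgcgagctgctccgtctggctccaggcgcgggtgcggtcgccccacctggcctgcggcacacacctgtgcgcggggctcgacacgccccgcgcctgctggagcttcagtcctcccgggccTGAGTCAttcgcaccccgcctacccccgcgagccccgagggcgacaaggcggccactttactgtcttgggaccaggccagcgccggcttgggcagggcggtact
Il1rn: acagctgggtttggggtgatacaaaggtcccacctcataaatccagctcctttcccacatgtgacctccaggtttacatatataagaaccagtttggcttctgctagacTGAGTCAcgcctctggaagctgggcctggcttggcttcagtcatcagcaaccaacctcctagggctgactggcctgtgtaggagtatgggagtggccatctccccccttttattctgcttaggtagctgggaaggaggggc
Il16: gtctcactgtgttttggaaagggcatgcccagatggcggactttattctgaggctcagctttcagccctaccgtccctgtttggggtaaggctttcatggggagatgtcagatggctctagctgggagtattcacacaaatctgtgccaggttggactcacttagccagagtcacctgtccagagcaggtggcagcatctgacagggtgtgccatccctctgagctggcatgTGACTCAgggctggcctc
Il11: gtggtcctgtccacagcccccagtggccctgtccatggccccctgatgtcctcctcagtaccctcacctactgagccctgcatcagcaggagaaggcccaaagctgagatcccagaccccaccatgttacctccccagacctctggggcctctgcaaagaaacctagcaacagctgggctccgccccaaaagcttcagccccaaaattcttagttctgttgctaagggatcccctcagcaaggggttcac

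The match of Il17rb (TGAGTCA) began 104 bases before the start, that of Il1rn (TGAGTCA) 141 bases and that of Il16 (TGACTCA) 18 bases before it. Motifs were searched on both strands as TGANTCA for AP-1, GGGA and CC with 4 bases between for NF-kB, TTCNNNGAA for STAT and TTNNGNAA for C/EBP. The AP-1 letters occurred in 6.87% of 27025 promoter windows and in 11 of the 60 interleukin genes with a window (18.3%), the NF-kB letters in 17.3% and 14 (23.3%), the STAT letters in 7.18% and 6 (10%), and the C/EBP letters in 36.9% and 26 (43.3%). Of the 12 genes that rose after UUO in at least 1 genotype, 10 had a window, and 2, 4, 0 and 3 of these held the motifs in that order. Of the 5 that fell, 3 had a window, with counts of 1, 0, 0 and 2. The window of Il11 held none of the 4, which concerns these letters in this window only.

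The genotypes were next compared after UUO, the contrast the study made with fewer WT kidneys (all 7 were used here). None of the 77 genes passed an adjusted p of 0.05 by limma over the 12 UUO kidneys, where 0.00552% of all genes did, which was Il33 alone (-2.36, SE 0.17, adjusted p = 9.6e-05). Without adjustment 4 interleukin genes were under 0.05 (5.19%), below the 10.3% of all genes, and the exact permutation test gave 4 as well. None passed the looser threshold of the study's methods, which 0.011% of all genes passed. Il10rb was the only one whose groups did not overlap, where 0.756% of all genes did not.

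Il10rb was higher in IL-33-deficient kidneys by 0.16 (SE 0.05, 95% interval 0.05 to 0.26, adjusted p = 0.324; exact permutation p = 0.00758), by 0.16 in set 1 and 0.15 in set 2. Il17rb was higher by 0.28 (SE 0.09, interval 0.08 to 0.49, adjusted p = 0.336; exact permutation p = 0.00505), with 3 of 5 IL-33-deficient kidneys above all WT ones. Its difference was 0.50 in set 1 and 0.14 in set 2, and both the highest IL-33-deficient value (kidney 3821, 8.67) and the lowest WT value (kidney 3820, 7.73) belonged to set 1. Over both sets the difference was 0.23 without kidney 3820, 0.24 without 3818 and 3820 and 0.20 without 3821. Il22ra1, a receptor chain for IL-22 that also serves IL-20 and IL-24, was higher by 0.21 (SE 0.07, adjusted p = 0.336). Il20, a ligand of the IL-10 family at background level, was lower by 0.11 (SE 0.04, adjusted p = 0.324).

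The differences that follow had intervals that included 0 and differed in width. Il6st differed by 0.00 (interval -0.15 to 0.16) and Il13ra1 by -0.00 (-0.26 to 0.26). Il11 differed by -0.06, but with an interval from -0.81 to 0.68, by 0.31 in set 1 against -0.34 in set 2, and by -0.42 without kidneys 3818 and 3820. Il1b differed by 0.21 (-0.21 to 0.64), Il15 by -0.15 (-0.39 to 0.09) and Il6 by -0.11 (-0.32 to 0.11), the last by -0.03 without kidney 3820. An interval that includes 0 does not show that the genotypes were alike. Of 5 fibroblast and smooth muscle markers, 4 rose in each genotype, where 6.97% and 10.6% of all genes were called higher. Their sums were 2122 to 3436 in WT and 3933 to 4212 in IL-33-deficient UUO kidneys. None of the 5 was called between the genotypes after UUO. The part of these markers in the differences above was not tested.

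**Figure D4:**
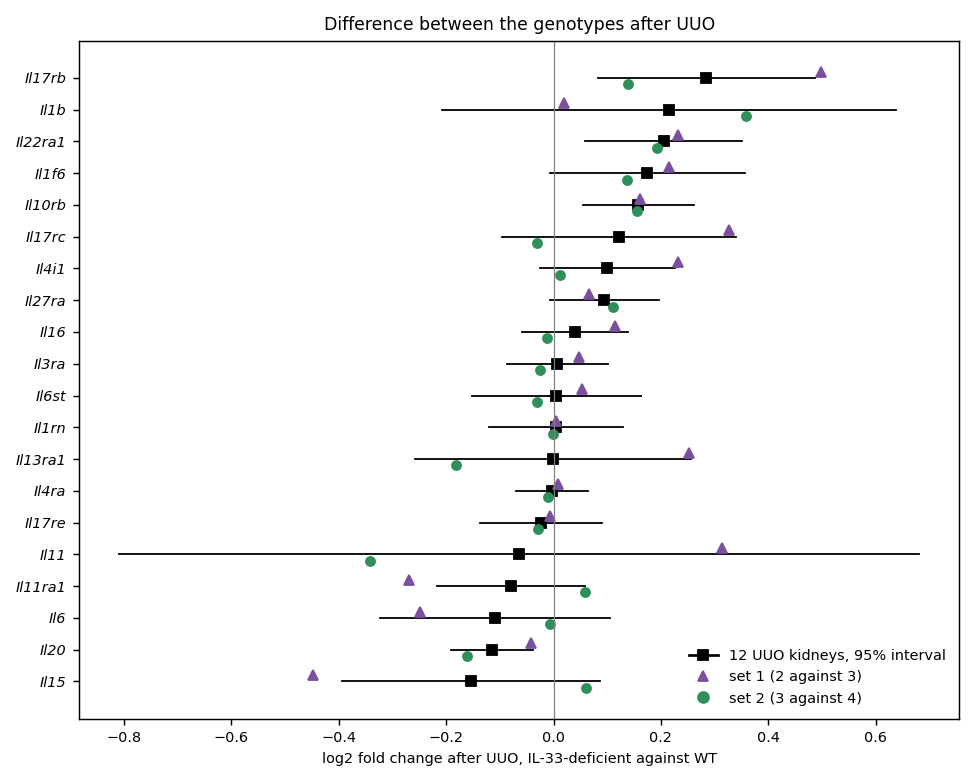
Log2 fold change after UUO of IL-33-deficient against WT kidneys (x axis) for the 17 genes called after UUO in at least 1 genotype and for Il6, Il20 and Il22ra1. Squares and lines give the 12-kidney estimate with its 95% interval, triangles set 1 alone and circles set 2 alone. Intervals of Il17rb, Il22ra1, Il10rb and Il20 leave out 0 before adjustment, and the sets lie on opposite sides of 0 for Il11, Il15, Il13ra1, Il11ra1, Il17rc, Il16, Il3ra, Il6st, Il4ra and Il1rn, the last 2 within 0.01 of it.

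Control kidneys were compared between the genotypes, 2 against 2. No interleukin gene passed, nor did any other gene (0%), and 5 were under an unadjusted p of 0.05 by limma (6.49%, against 3.66% of all genes). These were Il4ra (-0.18), Il18bp (-0.17), Il3ra (-0.19), Il22 (0.24) and Il23r (-0.14), each lower in IL-33-deficient controls but Il22, and each with an adjusted p of 1. Levels did not overlap between the control groups in 27 interleukin genes, a count that stands beside 34% of all genes. The difference between the genotypes in the response to UUO was tested as an interaction, and again no interleukin gene was called, as no gene was (0%). Unadjusted, 6 were under 0.05 (7.79%, against 4.74% of all genes), namely Il4ra, Il3ra, Il3, Il13, Il12b and Il23r. Il4ra, Il3ra and Il23r were also among those that differed between the controls, which enter both comparisons. Il17rb, whose responses of 0.54 and 0.88 differed by 0.34 (SE 0.17), had an adjusted p of 0.973.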

How the data were processed

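Total RNA of 16 mouse kidneys was amplified, labeled with biotin and hybridized to MouseRef-8 v2 BeadChips. The authors deposited linear intensities, 1 per gene, without detection p-values. Import with the beadarray package is stated in the methods, and BeadStudio 2 is named in the submitters' processing notes. Background correction, normalization and the rule that joins probes are not given in the sources used here. All value columns were used.

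Quantile normalization of all 16 arrays and a log2 transform came next here. Linear models were fitted per gene with limma 3.58.1 (lmFit, eBayes; R 4.3.3), and p-values of all 18132 genes were adjusted together by Benjamini and Hochberg, with a threshold of 0.05. Both UUO responses, the control comparison and the interaction came from 1 model of 4 groups, and the genotype difference after UUO from the 12 UUO arrays. The methods of the study also use limma for that contrast, but with 4 WT kidneys that its text does not name, so all 7 were used. Nothing states that kidneys were pooled, and each array was taken as 1 mouse. Exact two-sided permutation tests used the same arrays, with 792 splits for 5 against 7. The number of arrays limits the precision.

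Members, families, pathway and marker lists, motifs and the kidneys left out were chosen with earlier results of these data known. Named are all members called in a comparison, all members of the type 2, IL-1 and IL-6 lists, and Il33. Pathway and marker genes come from their lists. Il20, Il22ra1, Il22, Il23r, Il3, Il12b and Il15ra fall outside these rules and were named after their values were seen, as was Havcr1. Symbols matched RefSeq (GRCm38.p6) for 73 members and a synonym for 3. In simulated arrays with 200 genes changed by a log2 of 1, 95.5% were called for UUO in WT and 96% in IL-33-deficient kidneys. The shares were 97.5% for the genotypes after UUO, 91.5% for controls and 86% for the interaction. Calls among the unchanged genes numbered 16, 4, 10, 6 and 10 in that order. Smaller changes and differences between the sets were not simulated. Alternatives were no further normalization, median centring, a variance trend, array weights, brighter genes alone, each set alone or as a block, other groups in the model and each array left out. Computations used Python 3.11.15, pandas 2.3.3, numpy 2.4.6, scipy 1.17.1 and matplotlib 3.10.9.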

Additional observations from a re-analysis of the deposited data

Results flagged for a closer look

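In 11 of 88 groups of UUO kidneys tested, over 44 genes, 1 kidney stood apart from the rest by Dixon's criterion, which chance gives in about 1 of 20 groups. IL-33-deficient kidney 3821 stood apart in 4, with Il17rb at 8.67 (others 8.19 to 8.31), Il1f6 at 7.02 (7.30 to 7.37), Il25 at 6.92 (6.79 to 6.82) and Il9r at 6.68 (6.82 to 6.85). IL-33-deficient kidney 3899 did so for Il11 at 8.57 (8.93 to 9.04) and Il27 at 6.97 (6.87 to 6.88). WT kidney 3818 had Il33 at 8.39 (9.10 to 9.57) and WT kidney 3820 had Il6 at 7.60 (6.88 to 7.15). WT kidney 3894 had Il1r1 at 6.91 (6.97 to 7.0) and Il5ra at 6.72 (6.90 to 6.96), and WT kidney 3893 had Il25 at 6.64 (6.76 to 6.82). Il25, Il9r, Il5ra and Il1r1 were at the level of Il33 in kidneys without that gene.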

How the results depend on the processing

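No called gene changed direction under any alternative run. In WT kidneys, the 10 genes called after UUO became 1 with the UUO kidneys of set 1 only, 5 with only the 2 groups compared, and 3 to 12 when 1 kidney at a time was left out, the lowest without control 3811 or 3812. Leaving out kidneys 3818 and 3820, a choice made after seeing the data, gave 14, of which 9 were among the 10. In IL-33-deficient kidneys the 15 became 7 with set 1 only and 6 to 14 with 1 kidney left out, the lowest without control 3813 or 3814. Each of these runs held fewer kidneys, and the causes were not tested. The remaining alternatives gave 9 to 15 in WT and 13 to 15 in IL-33-deficient kidneys. Il11ra1 was called under all 18 alternatives in WT and all 15 in IL-33-deficient kidneys. For the genotypes after UUO, the control kidneys and the interaction, 0 interleukin genes passed the adjusted limma test under every alternative, with 4, 5 and 6 under an unadjusted p of 0.05 in the fits as reported. Over single genes, 85 recomputed values lost the call and 18 gained one. No paired analysis was possible because the replicate number in each label belongs to 1 kidney and is shared by no groups.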
